A study of Homo sapiens with 4 samples.

Results

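Polysomal RNA was compared with total RNA in LN229 cells treated with ATO, using 2 of the 4 array samples of the study. LN229 is an established human glioblastoma cell line. The labels give the agent as ATO alone, an abbreviation commonly used for arsenic trioxide. The comparison takes the log2 value of the sample titled as ATO polysomal RNA and subtracts that of the sample titled as ATO total RNA, for every probe set with 1 gene symbol, 16127 of 65528. Both samples came from cells given 5 µM ATO for 6 h in DMEM. The other 2 samples are polysomal and total RNA of untreated LN229 cells, and their difference shares no sample with the one described here, so it is given beside it. All 4 samples share a medium of DMEM, 10% FBS and gentamycin, and a hypotonic buffer containing cycloheximide was used for lysis. RNA of both fractions was purified with the same Qiagen kit after a sucrose gradient had separated the polysomes.

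An mRNA that is being translated carries several ribosomes at once, and such polysomes sediment faster than free mRNA, single ribosomes or small nuclear particles. Cycloheximide holds the ribosomes in place during lysis. An mRNA that is over-represented in the polysomal fraction makes up a larger share of it than of total RNA, while nuclear and untranslated RNAs are left behind. That share is not a direct measure of how fully the mRNA is loaded with ribosomes. The fraction does not tell light from heavy polysomes, and sedimentation alone does not separate polysomes from other large particles.

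Each group was 1 sample. Differences therefore carry no error and were not tested, and with so few arrays every value is of limited precision. Technical triplicates were pooled before deposit, per the series' design text. The sample titled as ATO total RNA has a source name that calls it polysomal, and it was grouped by its title here. Probe sets covered chromosomes 1 to 8 and part of 9, and genes elsewhere were not analysed here. Median log2 values over the 3875 coding genes kept were 11.20 in ATO polysomal and 11.03 in ATO total RNA. Because medians over all probe sets were nearly equal (4.24 and 4.25) and the normalization is unknown, the overall amount of polysomal RNA cannot be read from them, and a gene's difference is relative to the other RNAs of the fraction. In these bulk samples, fewer cells translating a message and less of it loaded per cell cannot be told apart.

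The label was first checked against RNAs that are not translated. RN7SK, the nuclear RNA that holds back the elongation factor P-TEFb, read 16.79 in ATO polysomal and 19.02 in ATO total RNA, a difference of -2.23. Over all 159 genes and copies of this RNA measured, most at low array levels, the median was -0.54, and 75 were over 1.5-fold lower and 3 higher. RN7SK was also lower in the sample titled polysomal in the untreated pair (-2.52). Of the glial and glioma markers, 6 of 10 were measured and 5 passed the filter, among them FABP7 (15.08 polysomal, 14.70 total), SOX2 (12.69, 12.91) and NES (10.56, 11.22), while CHI3L1 stayed low (3.36, 3.48). None of the 3 endothelial or 2 epithelial markers measured passed the filter, and 1 of 6 blood markers (CD74, 17.70 and 17.51) and 1 of 3 neuronal markers (GAD1, 9.02 and 9.44) did. The blood marker PTPRC was at 4.19 and 4.45.

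Among the 3875 coding genes kept, the difference had a median of 0.17 and quartiles of -0.09 and 0.44. Values ran from -1.64 for YBX1 to 1.49 for H2AC4. In all, 2597 genes (67%) stood above 0, as did 66.3% in untreated cells. Over 1.5-fold higher in polysomal RNA were 570 genes (14.7%), and over 1.5-fold lower 152 (3.92%). At 2-fold, 50 (1.29%) were higher and 20 (0.516%) lower. Thus 78.9% of genes past 1.5-fold were on the high side, a share that became 43.6% (243 higher, 314 lower) with each sample centred on its median and 41% (224 and 322) after subtraction of a loess trend on mean level. The median difference of all genes is 0 by construction in those settings. The direction of a gene near the median therefore depends on the scaling, and the lists below are also read against the median of 0.17. Of the 570 genes higher with ATO, 562 were above 0 and 327 were over 1.5-fold higher in untreated cells, where 16.2% of all genes passed on that side. Of the 152 lower genes, 149 were below 0 in untreated cells and 91 passed 1.5-fold there, against 4.72% of all genes.

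H2AC4, a histone H2A gene, read 11.72 in polysomal and 10.23 in total RNA, a 2.81-fold difference. IFT57, a part of the particle that carries cargo along cilia, followed with 8.61 and 7.27 (1.34). The DNA polymerase epsilon subunit POLE4 read 14.75 and 13.43 (1.32). The high side thus held genes at both low and high array levels. The ATO total value of IFT57 lay below the level filter of 7.80, which it passed by its mean over the 4 samples (8.05). Next came H2AC8 (1.28), the linker histone H1-4 (1.27), the interferon-inducible IFI6 (1.25) and FIS1, a receptor of the mitochondrial outer membrane in fission (1.24). TRNAU1AP, a protein that binds selenocysteine tRNA, read 9.12 and 7.89 (1.23), with a difference of 0.41 in untreated cells. PITHD1 (1.23), WRAP73 (1.22), SCRG1 (1.22) and the phosphatase ACP1 (1.22) were close to it. ACP1 read 14.81 and 13.59 with ATO and 14.65 and 14.21 without.

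The rest of the 20 highest genes were RPP21, a subunit of ribonuclease P (1.21), C5orf24 (1.21), the tRNA splicing endonuclease subunit TSEN15 (1.20) and H4C5 (1.19). COA5, needed to assemble cytochrome c oxidase (1.19), VAMP5, a membrane fusion protein (1.18), LSM6, of the ring that binds U6 RNA (1.17), and VHL (1.14) closed that group. VHL is the tumour suppressor that targets hypoxia-inducible factors for degradation, and it read 11.27 in polysomal and 10.13 in total RNA. In untreated cells its difference was 0.47. Of these 20 genes, 4 were below 1.5-fold in untreated cells, namely TRNAU1AP, ACP1, VAMP5 (0.56) and VHL, and all 20 were above 0 there.

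YBX1 stood at the other end. It encodes a cold shock domain protein that coats mRNA, and it read 16.73 in polysomal and 18.37 in total RNA, a 3.12-fold difference. PALS2, a scaffold of cell polarity, read 10.73 and 12.34 (-1.61). KIF26B, a kinesin-like protein, read 8.66 and 10.19 (-1.53). KIF26B was the one among the 3 lowest that was not past 1.5-fold in untreated cells (-0.51). SNRNP200, the helicase that unwinds U4 from U6 RNA in the spliceosome, read 13.98 and 15.41 (-1.43). SAP130, of the SIN3 corepressor complex (-1.42), ARPC1A, of the Arp2/3 actin nucleator (-1.36), and the transcriptional repressor BCL6 (-1.35) came next. DTL, the substrate receptor that marks CDT1 for destruction in S phase (-1.35), and KANSL1L (-1.33) followed.

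The gap junction protein gene GJA1 read 9.24 and 10.49 (-1.25). PABPC4, which binds poly(A) tails (-1.18), the lamins LMNA (-1.20) and LMNB1 (-1.09), UBE2D4 (-1.13), the sorting nexin SNX16 (-1.11) and tissue plasminogen activator PLAT (-1.10) were also in this group. FIP1L1, of the mRNA cleavage and polyadenylation complex (-1.07), the helicase DDX20 of the SMN complex (-1.05), TCAF1 (-1.04) and MDN1, the giant ATPase of 60S ribosome assembly (-1.01), completed it. MDN1 read 9.05 and 10.06 with ATO and differed by -0.29 in untreated cells. All 20 of these genes were below 0 in untreated cells too, and KIF26B and MDN1 were the 2 not past 1.5-fold there.

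**Figure D1:**
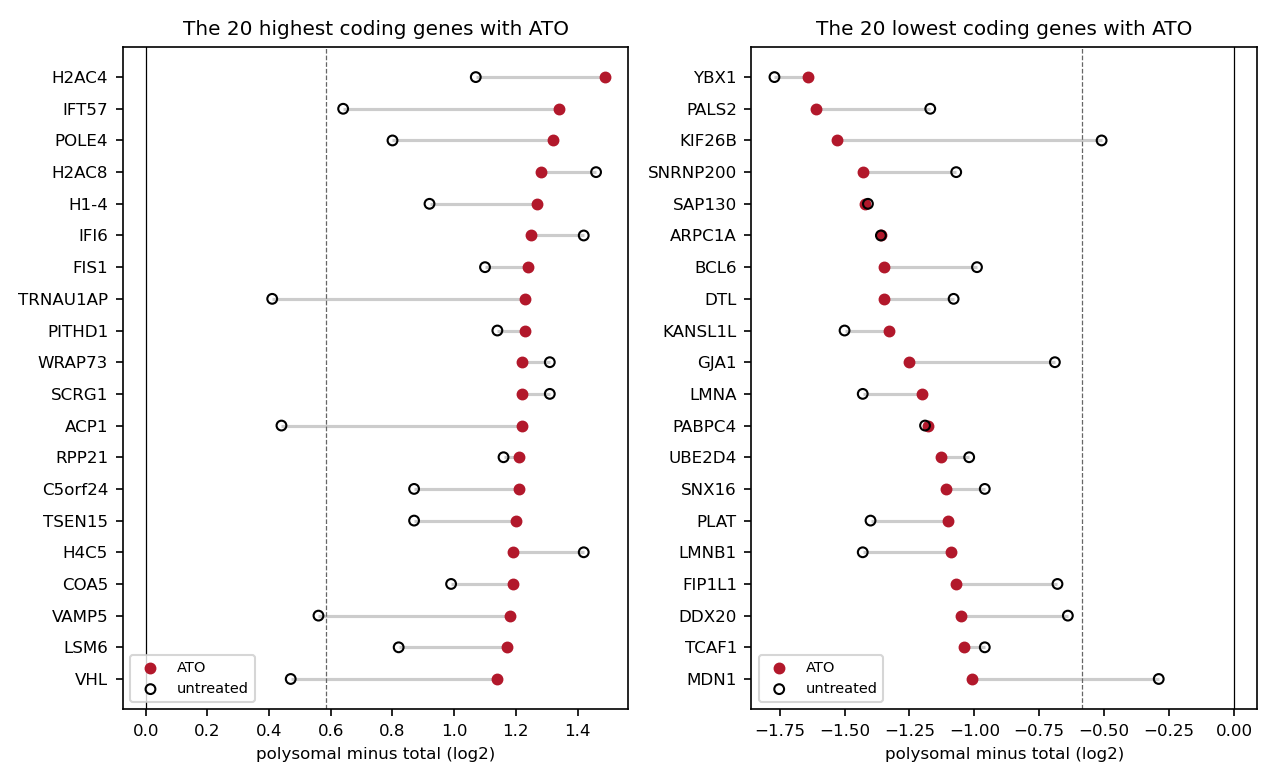
Polysomal minus total difference (log2, horizontal axis) of the 20 highest and the 20 lowest coding genes with ATO, 1 value per gene and state. Filled points are ATO and open points untreated cells, and the dashed line marks 1.5-fold. The filled points lie between 1.14 and 1.49 on the left and between -1.64 and -1.01 on the right, and each open point lies on the same side of 0.

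In the lists that follow, counts higher and lower are read against 14.7% and 3.92% of all genes. A count of none lower is close to that background for lists of this size. Messages for replication-dependent histones had the highest medians of the 37 lists. These mRNAs are made in S phase and have a 3′ stem-loop but no poly(A) tail. Of the 21 H1, H3 and H4 genes kept, 15 were over 1.5-fold higher and none lower, with a median of 0.66 against 0.17 for all genes. The linker histone H1-4 read 15.49 in polysomal and 14.22 in total RNA, and H4C5 17.55 and 16.36. H3C11 stood at 1.08, while H4C8 at 0.02, H4C2 at 0.33 and H4C4 at 0.37 were the lowest of the group. Of the 22 H2A and H2B genes kept, 12 were over 1.5-fold higher and none lower (median 0.60). H2BC14 read 14.71 and 13.61 (1.10). H2AC6 (-0.09), H2BC9 (0.25) and H2BC3 (0.30) were the lowest of that group. The corresponding medians in untreated cells were 0.82 and 0.72. The 4 polyadenylated histone variants kept had a median of 0.29, with H2AZ2 at 0.70, H2AZ1 at 0.34, MACROH2A1 at 0.23 and the centromeric CENPA at 0.13. Near-identical histone copies can share probes, so single members are uncertain.

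Nuclear messages for mitochondrial proteins came next. Complexes I to V of the inner membrane carry electrons and make ATP, and of their 26 nuclear-encoded subunits kept, 12 were over 1.5-fold higher and none lower (median 0.55). NDUFB3, of complex I, read 14.55 in polysomal and 13.46 in total RNA (1.09). The ATP synthase subunit ATP5ME read 12.07 and 11.11 (0.96), and NDUFS6, of complex I, 16.18 and 15.28 (0.90). SDHA (-0.06), the flavoprotein of complex II, UQCRB (0.20) and NDUFA10 (0.26) were lowest, so 25 of 26 stood above 0. Among 21 assembly factors, which insert cofactors and join subunits, 10 were over 1.5-fold higher and none lower (median 0.58). COA5 read 13.98 and 12.79, UQCC2, of complex III assembly, stood at 1.09 and the cytochrome c oxidase factor COX18 at 1.02. ACAD9 (-0.13), BCS1L (-0.02) and NDUFAF6 (0.07) were lowest there.

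Mitochondrial dynamics and import genes had a median of 0.51 over 18 kept, with 6 over 1.5-fold higher and none lower. Relative to all genes the median was 0.34, and 0.19 with the filter at the 75th percentile. FIS1 read 11.25 and 10.01. TIMM17A, of the inner membrane translocase, stood at 1.07 and the outer membrane protein MTX3 at 0.87. TOMM70, an import receptor (-0.18), and the fusion GTPases OPA1 (-0.05) and MFN2 (-0.01) were at the low end. Mitochondrial ribosomal proteins had a median of 0.41 over 37 kept, with 12 higher and none lower. Their range went from MRPS9 (-0.31), MRPS27 (-0.20) and MRPS18B (-0.17) to MRPL35 and MRPS25 (0.85 each) and MRPS17, which read 11.90 and 10.85 (1.05). The 5 mitochondrial aminoacyl-tRNA synthetases kept, which charge tRNAs inside the organelle, did not share that position. None passed 1.5-fold, with RARS2 at 0.40, IARS2 at 0.22, FARS2 at 0.02 and HARS2 and WARS2 at -0.06 each.

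Endoplasmic reticulum proteins had a median of 0.48 over 19 folding and stress genes kept, with 7 over 1.5-fold higher and none lower. MANF, a secreted stress protein, read 11.62 and 10.57 (1.05). EDEM1, which extracts misfolded glycoproteins, stood at 0.84 and the BiP exchange factor SIL1 at 0.82, while DERL1 (-0.17), the lectin chaperone CANX (-0.04) and the stress sensor ATF6 (0.13) were lowest. The machinery that inserts and glycosylates secretory proteins had a median of 0.41 over 21 genes, with 5 higher and none lower. The signal recognition particle receptor subunit SRPRB stood at 0.88, the particle's SRP9 at 0.80 and the translocon partner SEC62 at 0.75. SRP72, another protein of that particle, stood at -0.21 and SEC63 at -0.25. Lysosomal, V-ATPase and autophagy genes had a median of 0.30 over 30, with 6 higher (20%, against 14.7% of all genes) and none lower. The Ragulator subunit LAMTOR4 read 10.84 and 9.70 (1.14), LAMTOR5 stood at 0.73 and the autophagy conjugation protein ATG12 at 0.71. ATP6V1B2 (-0.41), ATG4C (-0.36) and ATP6V1H (-0.35) were lowest.

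**Figure D2:**
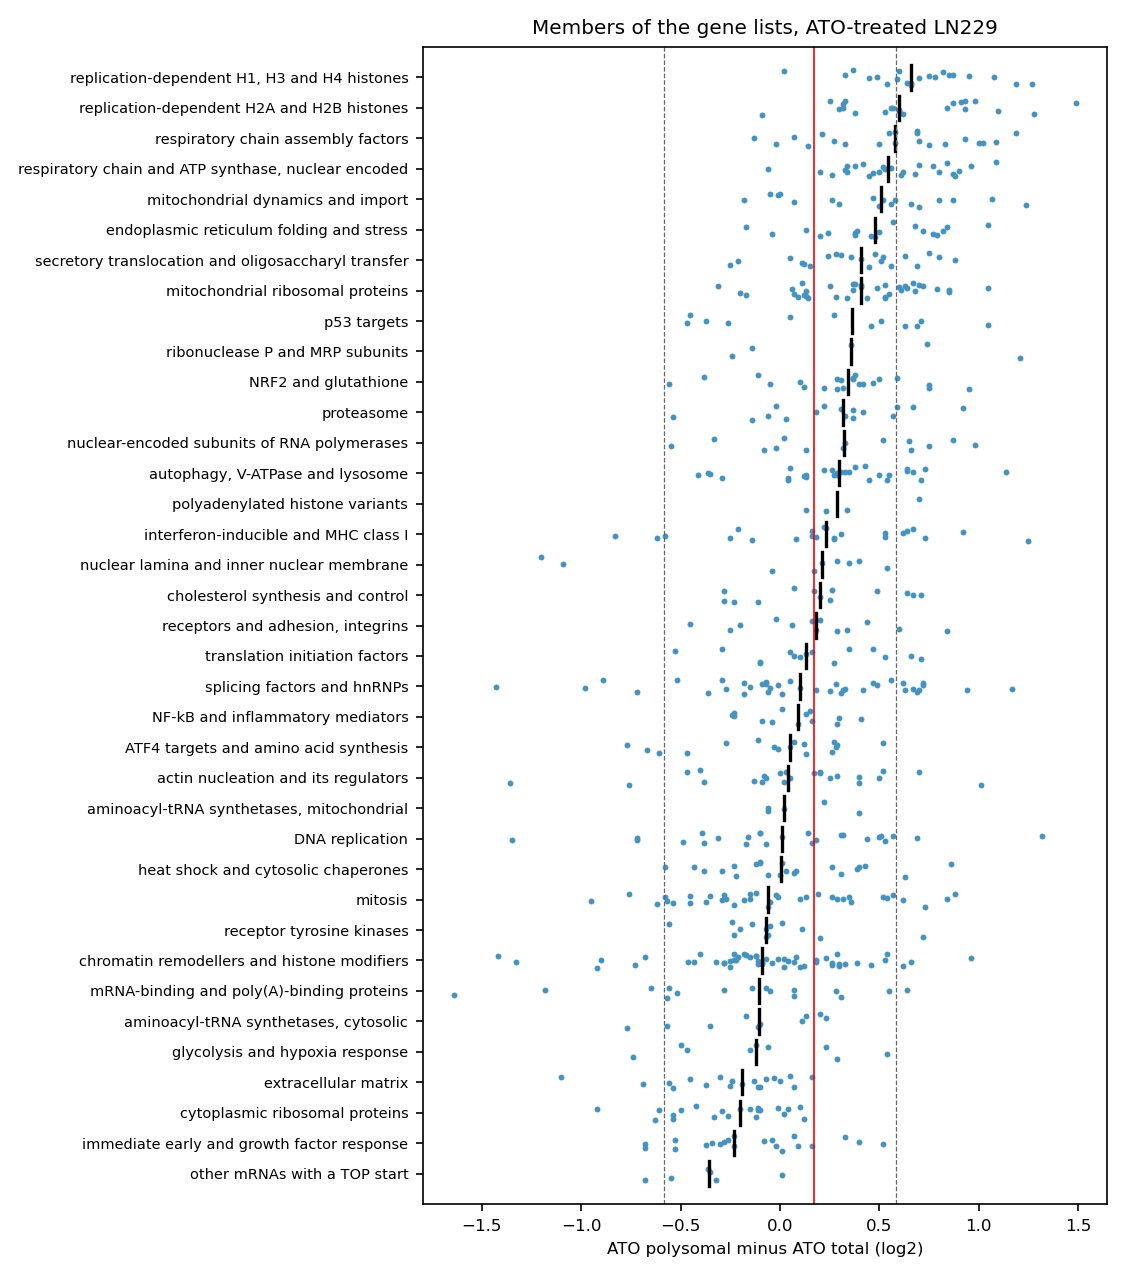
Polysomal minus total difference (log2, horizontal axis) with ATO for the members kept of 37 gene lists, 1 point per gene, ordered by median. Black bars are list medians, the red line is the median of all 3875 coding genes (0.17) and dashed lines mark 1.5-fold. The histone lists lie at the top with medians of 0.66 and 0.60, and mRNAs with a TOP start at the bottom with -0.36.

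Messages for cytoplasmic ribosomal proteins stood low. Vertebrate ribosomal protein mRNAs begin with a C and a run of pyrimidines, the terminal oligopyrimidine (TOP) start, through which mTOR and LARP1 control their translation. Of 21 cytoplasmic ribosomal protein genes kept, none was over 1.5-fold higher and 3 were lower, and the median was -0.20. Relative to all genes it was -0.37, which became -0.18 with quantile normalization. RPS12, of the small subunit, read 14.72 in polysomal and 15.64 in total RNA (-0.92). RPS14 read 13.98 and 14.61 (-0.63), and RPL37, of the large subunit, 16.12 and 16.73 (-0.61). At the other end, RPL31 stood at 0.12, RPL22 at 0.10 and RPL11 at 0.04. All 21 lay below the median of all genes, and in untreated cells their median was -0.35. Among probe sets of no matched gene type, RPS26 read 17.37 and 17.07 (0.30), above the median of all genes. RPL41 (-0.33) and RPL21 (-0.39), also of no matched type, lay below it. The other 6 mRNAs listed with a TOP start had a median of -0.36 and 1 member past 1.5-fold, the initiation factor subunit EIF3H, which read 16.39 and 17.07 (-0.68). EEF1D, an exchange factor for elongation (-0.55), NPM1 (-0.36), the elongation factor EEF1A1 (-0.35), EIF3E (-0.32) and BTF3 (0.01) were the others. Many of these values exceed 16, where the scale is not plain log2 intensity.

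The sequence at the start of these genes is shown because most of them share the TOP start, which the comparison did not use. RefSeq starts of GRCh38.p14 were read on the transcribed strand, with 10 bases before and 20 after the annotated start, and capitals mark the run of pyrimidines that opens with C at the start. The first 6 are ribosomal protein genes. RPS12 to RPL29 are the lowest of those with a start and RPL31 the highest, and those between are not shown. RPL9 has no run at its start. NPM1 and EEF1A1 are other listed TOP mRNAs. The last 3 are respiratory chain genes that stood high and have no such run. The respiratory chain genes NDUFC1 (0.34) and UQCRH (0.38), not shown, have runs of 6 bases.
RPS12, chr6:132814559-132814588, plus strand: cggatgaggcCTCTTTCCCTgccgccgccg
RPS14, chr5:150449720-150449749, minus strand: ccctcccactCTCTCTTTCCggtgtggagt
RPL9, chr4:39458903-39458932, minus strand: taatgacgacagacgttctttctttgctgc
RPS27, chr1:153990752-153990781, plus strand: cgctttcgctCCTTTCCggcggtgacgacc
RPL29, chr3:51995876-51995905, minus strand: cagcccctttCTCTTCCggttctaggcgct
RPL31, chr2:101002279-101002308, plus strand: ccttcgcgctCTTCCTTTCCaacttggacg
NPM1, chr5:171387839-171387868, plus strand: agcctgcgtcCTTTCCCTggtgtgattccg
EEF1A1, chr6:73521013-73521042, minus strand: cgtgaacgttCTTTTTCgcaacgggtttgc
NDUFB3, chr2:201071991-201072020, plus strand: tgacaacctccgtttccggttggctccggt
NDUFS6, chr5:1801397-1801426, plus strand: gtcaaaggccagcggcgcaaaatggcggcg
COX5B, chr2:97646052-97646081, plus strand: tgttcccggaagttttgctgctagtcgcgg

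RPS12 and RPL31 have runs of equal length (10 bases) and lay at opposite ends of the ribosomal protein range, at -0.92 and 0.12. A run was counted as a TOP start where a C at the annotated start was followed by at least 4 bases that were each C or T, on the transcribed strand alone. Of all 35116 starts in the table, 1429 (4.07%) held one. Starts on chromosome 8, where 280 of the genes kept lie, were left out of the reading by gene. Starts were read for 3236 of the 3875 genes. Where a gene had several, the longest run was taken, which favours a TOP call for such genes. By gene, 238 of 3236 (7.35%) held a TOP start, the share against which lists are read. A TOP start was held by 15 of 18 ribosomal protein genes with a start (83.3%) and by 2 of 17 respiratory chain genes (11.8%). It was also held by 3 of 3 other listed TOP mRNAs with a start read, NPM1, EEF1A1 and BTF3. Of the 6 kept, EIF3H, EEF1D and EIF3E had no start read. The 3 ribosomal protein genes without one were RPL9 (-0.54), RPS7 (-0.01) and RPL10A (0.02). It was held by none of 22 H2A and H2B and none of 18 H1, H3 and H4 genes. A match describes the letters of the window and does not show where transcription began in these cells.

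Across all genes with a start, the 238 with a TOP start had a median difference of 0.07 and the 2998 without one 0.19. Over 1.5-fold higher were 8.40% of the former and 15.7% of the latter, and over 1.5-fold lower 5.04% and 3.67%. Leaving out the ribosomal protein and other listed TOP genes gave 0.09 for 220 genes and 0.19 for the rest, a choice made after the values were seen. With genes of 1 annotated start, also chosen later, the medians were -0.02 (129 genes) and 0.21. With a TOP start allowed within 5 bases of the annotated start, they were 0.14 (954 genes) and 0.19. The median was lower with longer runs beyond 4 bases, at 0.16 for runs of 5 to 6, 0.08 for 7 to 8 and -0.03 for 9 or more, against 0.18 for no C at the start. The quartiles of all these classes overlapped, and they did so in the longest class, from -0.27 to 0.23, with the class without a C, from -0.08 to 0.45. Untreated cells gave medians of 0.06 with and 0.20 without a TOP start. Genes with an ATG among the first 50 transcribed bases had a median of 0.21 (1374 genes) and the others 0.16 (1862), and with genes of 1 annotated start 0.28 (767 genes, 21.3% over 1.5-fold higher) and 0.16 (1493 genes, 13.3%). In 5 classes of rising GC content of those bases, medians were 0.12, 0.17, 0.17, 0.23 and 0.21. In 5 classes of rising mean level they were 0.13, 0.16, 0.17, 0.23 and 0.21.

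**Figure D3:**
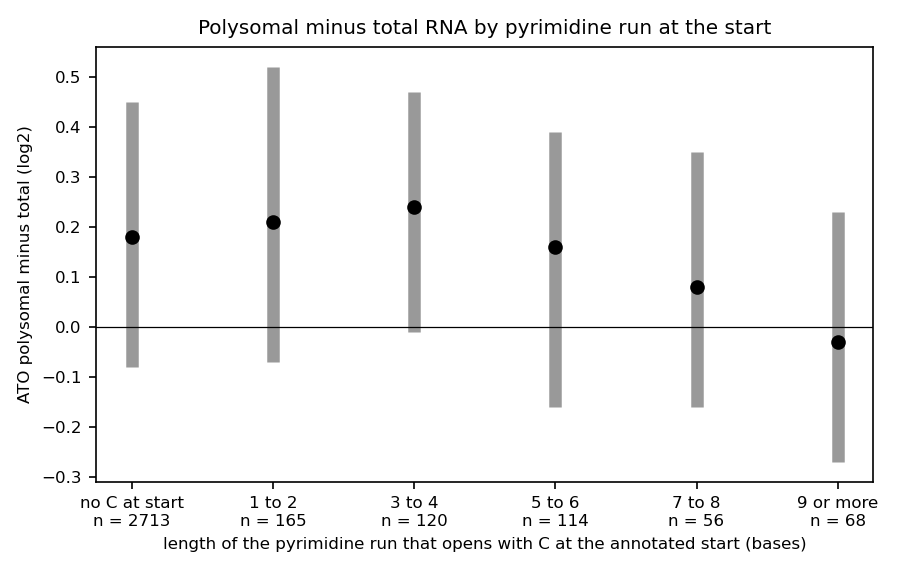
Median (points) and quartiles (grey bars) of the polysomal minus total difference (log2, vertical axis) with ATO, by the length in bases of the pyrimidine run that opens with C at the annotated start. Medians lie at 0.18 with no C, 0.24 at 3 to 4 bases and -0.03 at 9 or more, and the bars overlap.

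Genes for proteins that act on mRNA had a median below that of all genes. Of 16 mRNA-binding and poly(A)-binding protein genes kept, 3 were over 1.5-fold lower and 1 higher (median -0.11, or -0.28 relative to all genes and -0.43 with the filter at the 75th percentile). PABPC4 read 11.69 and 12.87, and the hnRNP-like SYNCRIP 14.24 and 14.89 (-0.65). PAIP1 (0.55) and PAIP2 (0.64), which bind poly(A)-binding protein, and LARP7 (0.31), which binds 7SK RNA, were the highest. Cytosolic aminoacyl-tRNA synthetases had a median of -0.11 over 10 genes, none higher and 1 lower, the bifunctional EPRS1, which read 12.22 and 12.99 (-0.77). LARS1 stood at -0.57, FARSB at -0.35 and YARS1 at 0.23. Translation initiation factors were spread (median 0.13 over 15 genes, 2 or 13.3% higher, none lower). The scaffold EIF4G1 stood at -0.53 and EIF5B, which joins the subunits, at -0.29, while EIF5A2 was at 0.71, the eIF4E inhibitor EIF4EBP1 at 0.66 and the cap-binding EIF4E2 at 0.53.

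**Figure D4:**
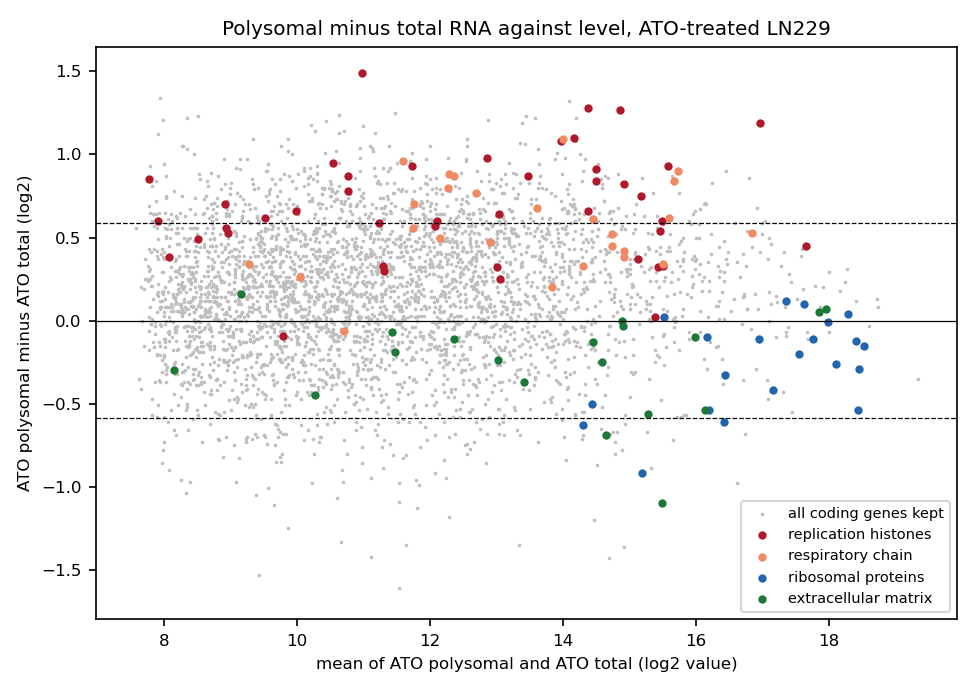
Polysomal minus total difference (log2, vertical axis) against the mean of the ATO polysomal and total values (log2, horizontal axis) for 3875 coding genes, 1 point per gene. Dashed lines mark 1.5-fold. Replication histones and respiratory chain genes lie mostly above 0 over a wide range of levels, ribosomal protein genes between -0.92 and 0.12 at the right, and extracellular matrix genes between -1.10 and 0.16.

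Extracellular matrix genes had a median of -0.19 over 19 kept, none over 1.5-fold higher and 2 lower. Relative to all genes the median was -0.36, and -0.23 with no level filter. PLAT read 14.93 and 16.03, and the thrombospondin THBS2 14.30 and 14.99 (-0.69). The laminin chain LAMC1 stood at -0.56, and SPARC (0.07), SERPINE2 (0.05) and THBS3 (0.16) at the top. On the probe sets used, all 19 lay below the median of all genes. Another THBS3 probe set, of no matched gene type, read 14.44 and 13.88 (0.56), above that median. Immediate early and growth factor response genes, whose mRNAs are short-lived, had a median of -0.23 over 21, none higher and 2 lower. Relative to all genes it was -0.40, and -0.20 with no filter. MYC read 9.49 and 10.17 and the nuclear receptor NR4A2 9.03 and 9.71 (-0.68 each). ATF3 (0.52), HBEGF (0.40) and SRF (0.33) were the highest. Glycolysis and hypoxia genes had a median of -0.12 over 9, with the glucose transporter SLC2A1 at -0.74, HK2 at -0.50, ENO1 at -0.47 and EGLN1, the prolyl hydroxylase that marks hypoxia-inducible factors for VHL, at 0.54. Receptor tyrosine kinases had a median of -0.07 over 13 (relative to all genes -0.24, and -0.03 with no filter), and FGFR1 alone passed 1.5-fold (9.30 and 8.58, 0.72).

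Several complexes were split between their members. In splicing, 9 of 39 genes kept were over 1.5-fold higher (23.1%, against 14.7% of all genes) and 4 lower (median 0.10, or -0.07 relative to all genes and -0.22 with the filter at the 75th percentile). SNRNP200, HNRNPU (16.13 and 17.11, -0.98) and SF3B4 (14.88 and 15.77, -0.89) stood low. LSM6 (11.57 and 10.40), SF3B5 (0.94) and SNRNP40 (0.72) stood high, so SF3B4 and SF3B5 of the same U2 particle lay on opposite sides. In the Arp2/3 complex, ARPC1A read 14.23 and 15.59 and ARPC1B stood at -0.47, whereas ARPC4 read 14.41 and 13.40 (1.01). The actin list had a median of 0.04 over 24 genes, with 2 higher and 2 lower, the second low gene being the formin DIAPH1 (-0.76). Among 14 subunits of RNA polymerases, 5 were higher (35.7%, against 14.7% of all genes) and none lower. POLR2D (0.98) and POLR2K (0.87), small subunits, were at the top, and POLR1A (-0.55) and POLR2B (-0.33), which are large subunits, at the bottom.

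In chromatin, 3 of 53 remodellers and modifiers were over 1.5-fold higher (5.66%, against 14.7% of all genes) and 6 lower (median -0.09). SAP130 read 10.40 and 11.82, KANSL1L 9.99 and 11.32, and the ISWI ATPase SMARCA5 11.62 and 12.54 (-0.92). On the high side were HDAC3 (13.02 and 12.06, 0.96), BRD9 (0.66) and SAP30 (0.62), the latter a partner of SAP130 in the SIN3 complex. DNA replication genes had a median of 0.01 over 25, with POLE4 and RPA3 (0.69) higher and DTL, the helicase subunit MCM6 (-0.72) and the origin-binding ORC1 (-0.72) lower. In mitosis, 4 of 37 were higher (10.8%, against 14.7% of all genes) and 3 lower (median -0.06). CENPF, a large kinetochore protein, read 11.76 and 12.71 (-0.95), and the condensin subunit NCAPH stood at -0.76 and KIF20A at -0.62. SPC25 (0.88), CENPW (0.84) and NEK2 (0.73) were highest. The lamina list was divided in the same way, with LMNA (13.87 and 15.07) and LMNB1 (10.99 and 12.08) lower and the lamin B receptor LBR at 0.54 (median 0.21 over 9, none higher).

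Stress pathways that arsenic compounds are known to engage were described next. NRF2, which arsenite releases from KEAP1, drives antioxidant and glutathione genes, and 4 of 22 of these kept were over 1.5-fold higher and none lower (median 0.34). That share, 18.2%, is near the 14.7% of all genes. GLRX2, a mitochondrial glutaredoxin, read 13.66 and 12.71 (0.95). SOD2, the mitochondrial superoxide dismutase, read 14.26 and 13.51 and GSTA4 9.51 and 8.76 (0.75 each). TKT (-0.56) and PGD (-0.38), of the pentose phosphate pathway, and NFE2L2, the NRF2 gene itself (-0.11), were lowest. Heat shock and cytosolic chaperone genes had a median of 0.00 over 22, with the prefoldin subunits PFDN2 (0.86) and PFDN1 (0.63) higher and none past 1.5-fold lower. HSPA4L (-0.58), HSP90AB1 (-0.43) and HSPA4 (-0.38) were at the low end. ATF4 targets and amino acid synthesis genes had a median of 0.05 over 17, none higher and 3 lower. These 3 were EPRS1, asparagine synthetase ASNS (14.42 and 15.09, -0.67) and the serine synthesis enzyme PHGDH (12.38 and 12.99, -0.61). ATF3, with 10.36 and 9.84, was the highest of that list.

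The proteasome had a median of 0.32 over 16 genes, with 3 higher (18.8%, near the 14.7% of all genes) and none lower. Its immunoproteasome subunit PSMB9 read 11.61 and 10.69 (0.92), PSMB1 stood at 0.67, the assembly chaperone PSMG3 at 0.59, and the large scaffold PSMD1 at -0.54. Of 12 p53 targets kept, 4 were higher (33.3%, against 14.7% of all genes) and none lower (median 0.36, untreated 0.10). The cell cycle inhibitor CDKN1A read 13.08 and 12.03 (1.05), ZMAT3 stood at 0.71 and CCNG2 at 0.69, while PLK2 (-0.47), CCNG1 (-0.45) and the repair protein XPC (-0.37) were low. Of the 5 subunits of ribonuclease P and MRP kept, RPP21 (8.59 and 7.38) and RPP14 (0.74) were higher, RPP40 stood at 0.36, POP7 at -0.14 and POP1 at -0.24. POP7 differed by 0.69 in untreated cells. Cholesterol synthesis genes (13, median 0.20, 23.1% over 1.5-fold higher) included FDPS (0.71), INSIG2 (0.67) and PMVK (0.64) on the high side and none past 1.5-fold lower. The list of receptors, adhesion genes and integrins (13, median 0.18, 15.4% over 1.5-fold higher) held CD47 (0.84) and the caveolin CAV2 (0.60). ITGA2 stood at -0.45. No member of the 13 NF-kB and inflammatory genes kept passed 1.5-fold, and they ran from PTX3 (-0.24) to CXCL8 (0.41).

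Interferon-inducible and MHC class I genes had a median of 0.23 over 23 with ATO and -0.01 in untreated cells. Over 1.5-fold higher were 6 (26.1%, against 14.7% of all genes), and 2 were lower. IFI6 read 12.09 and 10.84, and GBP2 (11.18 and 12.01, -0.83) and the DNA sensor IFI16 (14.62 and 15.24, -0.62) were the 2 lower genes. HLA-B, an MHC class I heavy chain that presents peptides, read 9.55 in ATO polysomal and 8.82 in ATO total RNA (0.73). In untreated cells it read 8.98 and 9.04 (-0.06). The other heavy chain genes kept, named after their values were seen, were HLA-E (0.62, untreated 0.12), HLA-C (0.53, 0.21) and HLA-F (0.27, -0.17). In each of the 4 the ATO value was above the untreated one, and related class I genes can share probes.

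Genes past 1.5-fold with ATO that differed least in untreated cells were taken by rule, 10 in each direction, so their untreated values were part of the choice. On the high side, MRPL15, of the mitochondrial ribosome, read 10.92 and 10.20 with ATO and 10.54 in both untreated samples. CEP85L, a centrosomal protein, read 8.47 and 7.53 with ATO (0.94) and 8.33 and 8.29 without (0.04). EXOG, a mitochondrial exonuclease, read 8.97 and 8.09 (0.88) and 8.60 and 8.58 (0.02). For all 3, the ATO total value was the lowest of the 4 and the ATO polysomal value the highest. The others were MFSD8 (0.87), HLA-B, ZNF141 (0.71), PTCD3, a mitochondrial ribosome protein (0.68), the lysosomal fucosidase FUCA1 (0.67), COPS9, of the COP9 signalosome (0.60), and KIAA0232 (0.59).

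On the low side, CHD7, a chromatin remodeller, read 7.63 and 8.53 with ATO (-0.90) and 8.06 and 8.07 without (-0.01). TRRAP, the large scaffold of histone acetyltransferases, read 9.34 and 10.19 (-0.85) and 9.96 and 10.15 (-0.19). ORC1, which binds replication origins, read 8.46 and 9.18 (-0.72) and 9.10 and 9.07 (0.03). In these 3 genes the ATO polysomal value was the lowest of the 4. ZBTB24 (-0.73), the iron-sensing ubiquitin ligase subunit FBXL5 (-0.71), DISP1, which releases Hedgehog ligands (-0.70), and the cohesin acetyltransferase ESCO2 (-0.69) were also chosen. The protocadherin PCDH7 (-0.69), FNDC10 (-0.62) and EMILIN1 (-0.59) completed the 10. With FBXL5 read as the mean over its probe sets, its difference was -0.21. Apart from COPS9, all of these 20 genes had a mean level over the 4 samples below 11.03, the median of kept genes in ATO total RNA. Whether their differences between the states exceed the spread between arrays was not tested.

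Outside the genes typed as coding, 7548 other named genes, noncoding or of no matched type, were measured. They include some protein-coding genes without a matched identifier, such as RPL41, RPS26 and THBS3. Over 1.5-fold higher with ATO were 312 (4.13%) and lower 813 (10.8%), and in untreated cells 276 (3.66%) and 917 (12.1%). These genes are described without the level filter, since RNAs low on polysomes pass it through their total value. Of the 808 that passed the filter, 71 (8.79%) were higher and 182 (22.5%) lower with ATO, and these shares carry that selection. The spliceosomal small nuclear RNAs, which work in the nucleus, had a median of -0.24 over 878 measured, with 253 (28.8%) lower and 38 (4.33%) higher. RNU4ATAC, of the minor spliceosome, read 12.02 and 15.79 (-3.77). Copies of 7SK RNA had 47.2% lower and 1.89% higher.

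Y RNAs, which bind the Ro protein, had a median of -0.78 over 19, with 12 lower and none higher. RNY1 read 10.44 and 14.99 (-4.55). RMRP, the RNA of ribonuclease MRP, read 6.17 and 10.47 (-4.30), against -6.40 in untreated cells. C/D box nucleolar RNAs had a median of -0.37 over 40, with 16 lower and 2 higher, and H/ACA box nucleolar RNAs -0.23 over 53, with 19 lower and 1 higher. The nucleolar RNA U3, outside these classes by its symbol, was not lower, with 9.98 and 9.57 (0.41). Small Cajal body RNAs had a median of -0.65 over 15, with 8 lower and none higher, and SCARNA7 stood at -4.03. The share over 1.5-fold lower was thus above the 10.8% of other named genes in each of these classes, from 28.8% for small nuclear RNAs to 63.2% for Y RNAs.

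Copies of 7SL RNA, the core of the signal recognition particle, had a median of -0.44 over 323, with 131 lower (40.6%) and 1 higher. RN7SL408P was the lowest at -3.68. Copies at high levels were split, with RN7SL126P at 13.60 and 16.48 (-2.88) and RN7SL96P at 16.70 and 16.89 (-0.19). Of the 48 past the level filter, 21 were over 1.5-fold lower. Ribosomal protein pseudogenes had a median of -0.25 over 385, with 55 lower (14.3%) and 4 higher. RPL12P1 stood at -1.44. Their probes can read the parent mRNAs, whose own median was -0.20. Probe sets named for microRNA loci, which read the locus and not the mature microRNA, had a median of 0.00 over 597, with 29 lower (4.86%) and 34 higher (5.70%). LINC genes (408, median 0.02) and antisense RNA genes (487, median 0.03) also lay near 0, with 3.43% and 4.52% higher. Their median ATO total levels were 4.12 and 4.44, so most of them read low. The 22 LINC genes past the level filter had a median of 0.22, with 5 higher and 2 lower. The 34 antisense genes past it had 0.28, with 5 higher and 1 lower. LINC01419 read 8.12 and 9.99 (-1.87), and STARD4-AS1 stood at 1.10. The 2 snoRNA host genes had a median of 0.22.

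The 5S ribosomal RNA, part of the large ribosomal subunit, lay on the high side with ATO. Of 248 genes and pseudogenes measured, 45 (18.1%, against 4.13% of other named genes) were over 1.5-fold higher in ATO polysomal RNA and 8 (3.23%) lower, and the median was 0.16. In untreated cells 9 (3.63%) were higher and 8 lower, and the median was -0.02. RNA5S9 read 16.19 in ATO polysomal and 14.72 in ATO total RNA (1.47), and 16.38 and 15.66 in untreated cells (0.72). RNA5SP149 read 14.77 and 13.32 (1.45), and 14.84 and 14.24 in untreated cells (0.60). RNA5SP202 read 17.61 and 16.20 (1.41), and 17.66 and 17.20 (0.46). In all 3 the ATO total value was the lowest of the 4, and the ATO polysomal value was below the untreated polysomal one. The polysomal values of other members went either way. RNA5SP71 (1.47), just under the level filter, read 8.33 in ATO polysomal and 7.80 in untreated polysomal RNA, and RNA5SP191 9.55 and 8.77. RNA5S11 read 16.90 and 16.85 in these samples, and RNA5S10 17.45 and 17.69. The 27 that passed the level filter held 20 distinct sets of values, so copies are not all separate measurements. Whether array spread alone gives such a difference between the states was not tested.

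**Figure D5:**
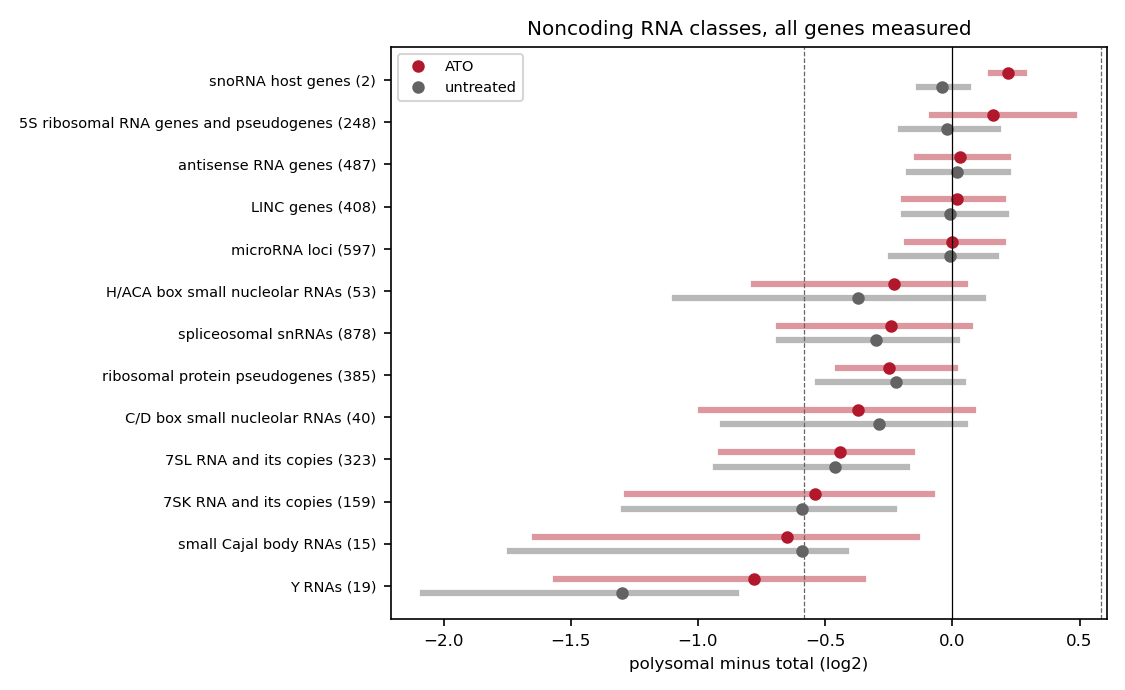
Polysomal minus total difference (log2, horizontal axis) by noncoding RNA class, over all genes measured, with their number in parentheses. Points are medians and bars quartiles, red for ATO and grey for untreated cells, and dashed lines mark 1.5-fold. Small nuclear RNAs have a median of -0.24 and 7SK copies of -0.54 with ATO, while 5S RNA has 0.16 with ATO and -0.02 without.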

How the data were processed

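The authors deposited log2 values, which were used unchanged. The series' design text states pooled technical triplicates and the Transcriptome Analysis Console. Affymetrix Expression Console is named per the submitters' processing notes. The normalization, the summary method and the build: not given in the sources used here. Values ran from 2.16 to 19.56 and 406 probe sets lay above 16, beyond what a 16-bit scanner gives on a log2 scale, so a fold on this scale need not be a fold of RNA.

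Names came from the platform annotation (16127 with 1 symbol, 419 with several, 48982 with none). Gene type came from the RefSeq table of GRCh38.p14, and the Entrez identifiers of 10775 probe sets matched. For a gene with several probe sets, the one of highest mean stood for it, taken for coding genes among probe sets typed as coding. The 3875 of 7749 coding genes whose 4-sample mean reached 7.80, the coding median, were kept. A coding gene near that level can pass it through its higher fraction. The 7548 other named genes were described without a filter, and the same level was an alternative. Of 844 list members measured, 711 passed (698 distinct genes). Groups followed the sample titles.

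Tests were not run, since each group is 1 sample. Genes past 1.5-fold, the threshold of the design text, were counted. Named genes were the 20 highest and 20 lowest, up to 3 at each end of every list and RNA class (all members of lists with 8 or fewer), and 10 per direction past 1.5-fold with the smallest untreated difference. Some RNA genes named from those past the filter, RMRP, and the windows of RPL9, RPS27, RPL29 and COX5B were chosen after their values were seen. Members and lists were chosen with earlier results of these data known. Protein length was planned as a feature and was not used here. Alternatives were centring, quantile normalization, other filters, an offset of 32, the mean over probe sets, a loess trend (span 0.3), all named genes and a 2-fold threshold. Steps ran in Python 3.11.15 with numpy 2.4.6, pandas 2.3.3 and statsmodels 0.14.6, and were tested on simulated data.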

Additional observations from a re-analysis of the deposited data

Results flagged for a closer look

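In 4 named genes past 1.5-fold with ATO, the polysomal minus total difference had the opposite sign in untreated cells. HLA-B stood at 0.73 with ATO and -0.06 without, and ZNF141 at 0.71 and -0.07. ORC1 stood at -0.72 with ATO and 0.03 without, and PCDH7 at -0.69 and 0.15. These signs depend on the scaling. All 4 untreated values lay below the untreated median of all genes, 0.19, so against the medians ORC1 and PCDH7 were low in both states. Under the alternative settings the ATO difference went down to 0.56 for HLA-B and 0.54 for ZNF141, short of 1.5-fold. The difference between the states was not tested, since each group is 1 sample, and these genes come from a choice of genes with small untreated differences.

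Probe sets without a single gene symbol were outside the comparison. Of the 2180 that passed the same level filter, 152 (6.97%) stood over 1.5-fold higher in ATO polysomal RNA, and 224 (10.3%) stood lower by as much. Their median was -0.03.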

How the results depend on the processing

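The count of coding genes over 1.5-fold higher, 570, became 243 with centred samples, 320 with the filter at the 75th percentile, 224 after the loess subtraction and 50 at 2-fold. The count over 1.5-fold lower, 152, became 314, 80, 322 and 20 in the same settings, and 334 with all named genes. These counts moved with the median of all genes, which is 0 after centring and loess, and with the number of genes in the filtered and enlarged sets. The TOP difference in medians of -0.12 became -0.23 with genes of 1 annotated start and -0.05 with a start allowed within 5 bases. The median of the mitochondrial aminoacyl-tRNA synthetases relative to all genes turned from -0.15 to 0.09 when the 75th percentile was the filter, and the cause was not tested. Of the list medians relative to all genes under the alternatives, 284 moved by at most 0.1 and 11 by more. Signs turned also for NF-kB genes (-0.08 to 0.08 with that filter) and, within 0.1 of the main value, for initiation factors (-0.04 to 0.03), splicing (-0.07 to 0.02) and integrins (0.01 to -0.03). Ribosomal proteins went from -0.37 to -0.18 with quantile normalization. With no filter, extracellular matrix went from -0.36 to -0.23, immediate early genes from -0.40 to -0.20 and receptor tyrosine kinases from -0.24 to -0.03. With the 75th percentile filter, mitochondrial dynamics went from 0.34 to 0.19, mRNA-binding proteins from -0.28 to -0.43, splicing from -0.07 to -0.22, ATF4 targets from -0.12 to -0.28 and receptor tyrosine kinases to -0.36. Of 13 noncoding class medians, 10 moved by over 0.1 with the level filter, to -2.04 for small nuclear RNAs, -2.66 for 7SK copies and 0.92 for 5S RNA, since the filter selects on the values compared. The ribonuclease P list had no value at the 75th percentile filter. The 20 highest and 20 lowest genes stayed past 1.5-fold in all settings that held them, whereas 9 of the 20 genes chosen for small untreated differences did not. No paired analysis was possible because each group is 1 sample, and for the same reason none could be left out. Protein length was not used here. Signal over background was not measured, so low probe sets may be compressed.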
